A study of Mus musculus with 8 samples.

Results

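Egr1 and 9 other immediate early genes (Fos, Jun, Junb, Ier2, Ier3, Atf3, Dusp1, Btg2 and Zfp36) were followed in the liver of aged obese mice. These 10 genes were chosen by name from the 56884 genes of the count tables, after Egr1 was known to differ between the groups in these data, in order to ask whether it moved together with the rest of its class. All 10 passed the filter on low counts that left 12412 genes for testing, Ier3 through the DIO + DHA libraries alone.

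The libraries came from the liver of 18-month-old female C57BL/6J mice, 3 of the DIO group (replicates 1, 4 and 5) and 5 of the DIO + DHA group (replicates 1, 2, 4, 5 and 6), with 1 library per mouse. Both groups shared an obesity-inducing high-fat diet in which lipids gave 45% of the energy, which all mice ate for 4 months before they were divided and then up to sacrifice. The DIO + DHA diet differed in that a fish oil concentrate with 683.4 mg of docosahexaenoic acid (DHA) per g took the place of 15% by weight of its lipids. The study's methods add that the mice were fasted overnight before sacrifice, so the data describe the fasted state at the age given. RNA came from liver tissue with all its cells, and fewer cells of a type cannot be told apart from less RNA per cell. No lean or young mice were compared here.

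Immediate early genes are switched on within minutes of a stimulus, without new protein synthesis. Growth factor receptors act through the ERK kinases on serum response factor (SRF) and its partners at CArG boxes, while hormones that raise cyclic AMP act through CREB at cyclic AMP response elements (CRE). The products are transcription factors (EGR1 and the AP-1 proteins FOS, JUN, JUNB and ATF3) together with proteins that end the response, such as the MAP kinase phosphatase DUSP1 and the mRNA-destabilizing protein tristetraprolin, encoded by Zfp36. Their mRNAs are short-lived, often through AU-rich stretches in the 3′ untranslated region (UTR). In the liver this class answers to feeding, partial hepatectomy, injury and the handling of tissue, and EGR1 and AP-1 factors act in hepatocytes as well as in macrophages and other cells.

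The libraries held 1723800 to 5690347 counts, with the DIO replicate 1 library as the shallowest. Counts were scaled to a common library size by TMM and are given as CPM. The labelled tissue held: summed hepatocyte markers reached 102668 to 109163 CPM in DIO and 107003 to 122617 CPM in DIO + DHA, and no gene of that list was at 0. Of these 11 markers 3 were higher, such as Apoa1 (0.52), and 4 lower, such as Hnf4a (-0.53) and Fgb (-0.51), in DIO + DHA. Summed markers of several other cell types differed between the groups. Several genes of the skeletal muscle and epithelium lists were included because an earlier account of these data names them, which partly fixed their tallies. Summed skeletal muscle markers stood at 64.9 to 69.1 CPM in DIO and 1590 to 1704 CPM in DIO + DHA, with 20 of 20 genes higher, 8 of which met the filter only through DIO + DHA, and smooth muscle markers at 9.23 to 11.9 and 28.9 to 45.0 CPM. Stratified squamous epithelium markers summed to 217 to 234 CPM in DIO and 343 to 374 CPM in DIO + DHA, with 11 of 12 tested genes higher, but 8 of these 11 met the filter only through DIO + DHA, so that this tally was largely fixed by the filter. Most of that sum was Perp and Ly6d. Among the keratins, Krt4 stood at 0.060 CPM in DIO and 25.2 CPM in DIO + DHA, and Krt13 at 0 and 15.8 CPM. Both met the filter only through DIO + DHA, as did Krt15 at 0 and 1.62 CPM. The other keratins of this list, Krt5, Krt14, Krt6a and Krt6b, were too low to test. They had 0 counts in every DIO library and peaked at 11, 8, 1 and 1 counts in DIO + DHA. Macrophage and Kupffer cell markers summed to 1127 to 1222 CPM in DIO and 644 to 685 CPM in DIO + DHA, with 14 of 17 lower and 1 higher, and endothelial markers to 256 to 280 and 196 to 230 CPM, with 2 of 12 lower (16.7%). Stellate and fibroblast markers summed to 278 to 305 CPM in DIO and 263 to 276 CPM in DIO + DHA, with 2 of 12 higher and 2 lower. The 2 higher, Des and Acta2, are also in the smooth muscle list. Neutrophil and cholangiocyte sums overlapped between the groups (19.1 to 24 and 16.4 to 24.2 CPM, and 64.7 to 72.6 and 65.6 to 81.7 CPM). For comparison, 15.2% of all genes tested passed the edgeR test, 7.89% higher and 7.28% lower. No gene of these lists was at 0 in all libraries. The genes below are expressed in muscle, epithelium and macrophages too, and the part of these cells in the results was not tested.

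The elements through which this class is read out can be seen in the genes themselves (GRCm39, read in the direction of the gene, with the matched letters in capitals). Windows of 500 bases before to 50 bases after the start of the canonical GENCODE release 39 transcript were searched on both strands for 9 of the 10 genes, Egr1 not included, and for 11268 tested protein-coding genes in the same way. That start can differ from the end of the gene span given below: it is 26727493 for Dusp1, whose span also covers longer transcripts, and 85520658 for Fos. The CArG box was found in Fos and in 2.66% of all promoters:
Fos CArG box, chr12:85520345-85520374, plus strand, 303 bases before the start: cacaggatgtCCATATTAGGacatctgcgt

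The CRE letters TGACGTCA were found in 3 of the 9 promoters and in 3.56% of all promoters. Whether the levels of Ier2, Dusp1 and Btg2 changed differently was not tested. These sites are shown because they set Ier2, which passed the test below, beside Dusp1 and Btg2, which did not:
Ier2 CRE, chr8:85389508-85389537, minus strand, 43 bases before the start: tggtgttgcagTGACGTCActctcagtata
Dusp1 CRE, chr17:26727571-26727600, minus strand, 96 bases before the start: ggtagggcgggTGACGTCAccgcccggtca
Btg2 CRE, chr1:134007041-134007070, minus strand, 201 bases before the start: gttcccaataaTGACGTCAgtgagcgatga

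The letters GCGNGGGCG were searched as a loose form of the EGR1 site, with any base at N. They were found in Btg2 and Jun and in 9.83% of all promoters. Both sites below have C at N, and binding of EGR1 to them was not tested:
Btg2 EGR letters, chr1:134007005-134007034, minus strand, 166 bases before the start: cgcctgggagGCGCGGGCGagctggcgggc
Jun EGR letters, chr4:94940930-94940959, minus strand, 498 bases before the start: gcGCGCGGGCGcgcgcctgtgtgcaacctt

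AP-1 letters (TGANTCA) were found in Fos alone among the 9 and in 11.0% of all promoters. The TATA letters TATAAA, searched over the whole window, occurred in Fos and Junb and in 18.8% of all promoters. A match is a description of the sequence and not a site in use, and a gene without a match may hold the element elsewhere.

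In the 3′ UTR, the AU-rich nonamer that tristetraprolin binds (TTATTTATT in DNA letters) was found in Fos, Dusp1 and Zfp36 itself, that is in 3 of 9 genes (33.3%), against 8.60% of 11194 genes and 6.46% of the 5124 genes with a 3′ UTR of 485 to 2199 bases, the range of the 9. The 4 sites are shown because the protein that reads them is itself encoded by a gene of the set:
Fos, chr12:85523877-85523906, plus strand: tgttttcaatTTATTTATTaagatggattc
Dusp1, chr17:26725132-26725161, minus strand: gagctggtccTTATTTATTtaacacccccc
Dusp1, chr17:26724843-26724872, minus strand: gtttttacctTTATTTATTtttgtgtaggt
Zfp36, chr7:28076375-28076404, minus strand: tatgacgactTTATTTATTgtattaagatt

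The shorter pentamer ATTTA occurred at least 3 times in 7 of 9 genes, against 41.7% of all genes. Ier3 and Btg2 had 5 each and Ier2 had 0.

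Egr1 (ENSMUSG00000038418.8, chr18:34992876-34998037, plus strand) encodes a zinc finger transcription factor. Its level was 11.3, 8.29 and 6.21 CPM in DIO replicates 1, 4 and 5, from 20, 46 and 35 counts. In DIO + DHA replicates 1, 2, 4, 5 and 6 it was 29.8, 29.5, 27.1, 24.4 and 20.3 CPM, from 150, 88, 76, 104 and 93 counts. The groups did not overlap, and the lowest DIO + DHA library, replicate 6, had 20.3 CPM against 11.3 CPM in the highest DIO library. Mean levels were 8.59 ± 2.53 CPM in DIO (SD, n = 3) and 26.2 ± 3.95 CPM in DIO + DHA (SD, n = 5). The log2 fold change was 1.72 with a standard error (SE) of 0.18, or 3.05-fold. No test is given for Egr1, since this difference was known when the 10 genes were put together. Leaving out each library in turn gave 1.52, without DIO replicate 5, to 1.85, without DIO replicate 1. The skeletal muscle markers summed in the DIO + DHA libraries, in the same order, were 1704, 1644, 1600, 1603 and 1590 CPM, and in DIO 66.9, 69.1 and 64.9 CPM. Epithelium markers summed to 231, 217 and 234 CPM in DIO and to 360, 343, 360, 362 and 374 CPM in DIO + DHA. Their part in the level of Egr1 was not tested.

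**Figure D1:**
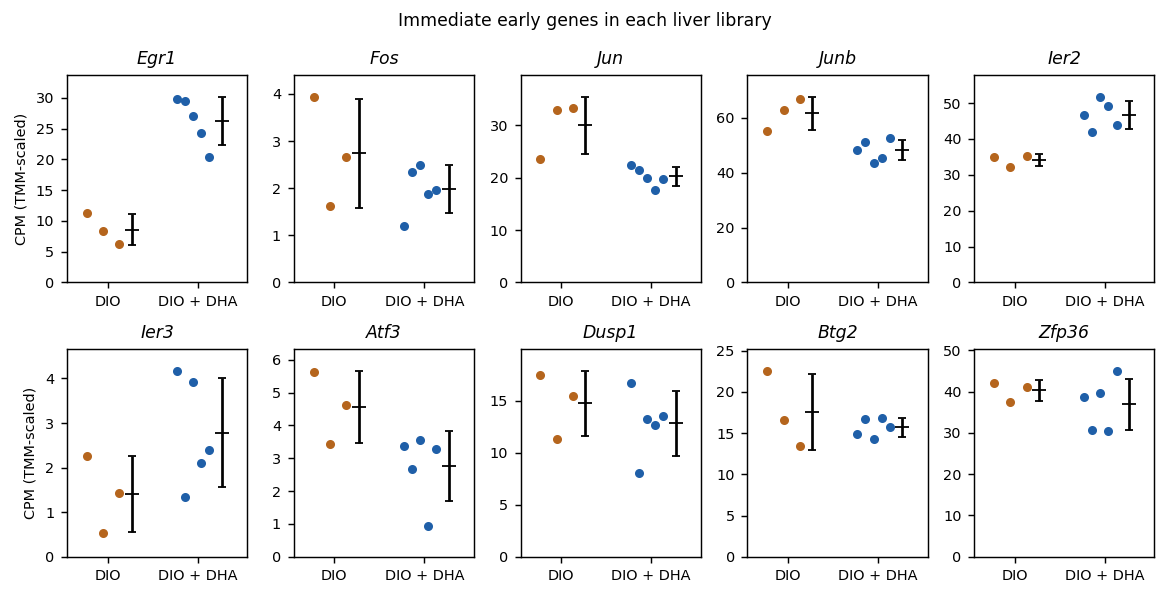
Level of the 10 immediate early genes in each liver library, in CPM scaled by TMM, with DIO (n = 3) in orange, DIO + DHA (n = 5) in blue, libraries in the order of their replicate numbers, and the mean with SD beside the points. Egr1 and Ier2 sit higher in every DIO + DHA library and Jun and Junb lower, while the groups overlap for the other 6 genes.

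Among the 9 other genes, 3 passed the test (33.3%), Ier2 higher and Jun and Junb lower in DIO + DHA. Of all 12412 genes tested, 15.2% passed, 7.89% higher and 7.28% lower, by the quasi-likelihood test of edgeR at an adjusted p under 0.05 (Benjamini-Hochberg over all of them). The 9 genes were chosen with results of these data in view, and nothing is read from that share. The same 3 genes were those whose libraries did not overlap between the groups, which held for 18.4% of all genes, 9.54% higher and 8.88% lower. The median log2 fold change of the 9 genes was -0.11, and that of all genes 0.0011. Of the 9 genes, only Ier2 passed the test in the direction of Egr1.

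The AP-1 genes encode proteins that pair with each other to bind DNA. Jun (ENSMUSG00000052684.6, chr4:94937271-94940459, minus strand), the main partner of FOS, was at 23.6, 32.8 and 33.4 CPM in DIO replicates 1, 4 and 5. In DIO + DHA it was 22.4, 21.4, 20.0, 17.6 and 19.7 CPM, so the DIO + DHA libraries were all below the DIO range, although DIO replicate 1 came close to the highest of them. Mean levels were 29.9 ± 5.47 CPM in DIO (SD, n = 3) and 20.2 ± 1.85 CPM in DIO + DHA (SD, n = 5), with a log2 fold change of -0.62 (SE 0.13, adjusted p = 2.8e-04 by the edgeR test). Jun kept its direction and its call in all 17 alternatives run, between -0.70 and -0.55. An antisense gene, Junos, shares 7.28% of the exon bases of Jun, and counting used no strand.

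Junb (ENSMUSG00000052837.8, chr8:85701113-85705347, minus strand), a JUN relative that often opposes it in cell proliferation, had the highest CPM of the 4 AP-1 genes among the 10. It stood at 55.1, 62.7 and 66.9 CPM in DIO and at 48.2, 50.9, 43.5, 45.4 and 52.6 CPM in DIO + DHA. The groups did not overlap, but only 52.6 and 55.1 CPM separate the nearest libraries. Means of 61.6 ± 5.97 CPM in DIO (SD, n = 3) and 48.1 ± 3.76 CPM in DIO + DHA (SD, n = 5) gave a log2 fold change of -0.38 (SE 0.10, adjusted p = 0.00389 by the edgeR test). This call was lost without DIO replicate 5, with -0.30 and an adjusted p of 0.078 by the same test. It was also lost under limma-voom with B above 0, the rule of the study's methods. Exons of the antisense neighbour Prdx2 cover 7.52% of the exon bases of Junb.

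Fos (ENSMUSG00000021250.14, chr12:85520664-85524047, plus strand), whose promoter holds the CArG box shown above, was counted 7, 9 and 15 times in DIO and 6, 7, 7, 8 and 9 times in DIO + DHA. This made 3.94, 1.62 and 2.66 CPM in DIO and 1.19, 2.35, 2.5, 1.87 and 1.97 CPM in DIO + DHA, and the groups overlapped. The log2 fold change was -0.36 (SE 0.40, adjusted p = 0.646 by the edgeR test), with a 95% interval of -1.17 to 0.45, so a change of the size seen in Egr1 lies outside the interval and a change of the size seen in Jun lies inside it.

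Atf3 (ENSMUSG00000026628.14, chr1:190902493-190950236, minus strand), a stress-induced member of the ATF/CREB family, was counted 10, 19 and 26 times in DIO and 17, 8, 10, 4 and 15 times in DIO + DHA. Its level was 5.63, 3.43 and 4.61 CPM in DIO and 3.37, 2.68, 3.57, 0.937 and 3.28 CPM in DIO + DHA, where replicate 5 was the lowest and replicate 4 overlapped the DIO range. The log2 fold change was -0.64 (SE 0.33, 95% interval -1.30 to 0.02, adjusted p = 0.209 by the edgeR test). Its fitted change was close to that of Jun, with a wider error that goes with its few counts.

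The CPM of Fos, Jun, Junb and Atf3 summed to 88.3, 100.6 and 107.5 in DIO and to 75.2, 77.4, 69.6, 65.8 and 77.5 in DIO + DHA, without overlap. This sum is mostly Junb and Jun, and it carries no test of its own. Jund and Fosl2, the FOS and JUN relatives outside the 10 genes that could be tested, did not pass. Jund, which is expressed without a stimulus in many tissues, was 59.3 ± 4.66 CPM in DIO and 51.0 ± 10.5 CPM in DIO + DHA (-0.20, SE 0.12, adjusted p = 0.328 by the edgeR test). Without DIO + DHA replicate 5, which at 68.2 CPM lay above all DIO libraries, Jund gave -0.34 and an adjusted p of 0.0229 by that test. Fosl2 was 12.7 and 14.7 CPM (0.21, adjusted p = 0.546 by the edgeR test). Fosb was counted at most 3 times in any library and Fosl1 was not counted, so neither was tested.

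Ier2 (ENSMUSG00000053560.6, chr8:85387960-85389483, minus strand), a small nuclear protein gene with a CRE close to its start, was 34.9, 32.1 and 35.1 CPM in DIO. In DIO + DHA it was 46.6, 41.9, 51.7, 49.2 and 43.9 CPM, and every library lay above the DIO range. The mean was 34.0 ± 1.69 CPM in DIO (SD, n = 3) and 46.7 ± 3.95 CPM in DIO + DHA (SD, n = 5), with a log2 fold change of 0.46 (SE 0.11, adjusted p = 0.00143 by the edgeR test). It kept its call in 16 of 17 alternatives. The exception was the stricter B threshold of limma-voom, which is the rule of the study's methods.

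Ier3 (ENSMUSG00000003541.7, chr17:36132576-36133815, plus strand), which takes part in survival signalling and ERK feedback, was counted only 4, 3 and 8 times in DIO and 21, 4, 11, 9 and 11 times in DIO + DHA. Its level was 2.25, 0.54 and 1.42 CPM in DIO and 4.17, 1.34, 3.92, 2.11 and 2.40 CPM in DIO + DHA, and the groups overlapped through DIO + DHA replicates 2 and 5. The log2 fold change was 1.25 (SE 0.46), with a 95% interval of 0.32 to 2.17 before any adjustment and an adjusted p of 0.0515 by the edgeR test. With fewer than 5 counts in DIO replicates 1 and 4, Ier3 entered the test only through DIO + DHA, where it is higher, which bears on this value and on those that follow. It passed without DIO replicate 1 (1.5, adjusted p = 0.0272), and without DIO + DHA replicate 2 (1.38, adjusted p = 0.0286), replicate 5 (1.34, adjusted p = 0.0431) or replicate 6 (1.30, adjusted p = 0.0466), each by the same test. Without DIO replicate 4, which had the lowest value, the log2 fold change was 0.78 and the adjusted p 0.377, the highest of its 16 alternatives, and without DIO + DHA replicate 1, which had the highest, they were 1.01 and 0.205. At so few counts both the size and the call depended on which libraries were used.

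Neither Dusp1 nor Zfp36, whose products limit the response, showed a change that passed the test. Dusp1 (ENSMUSG00000024190.8, chr17:26724564-26781102, minus strand), which dephosphorylates MAP kinases in the nucleus, was 17.4, 11.4 and 15.4 CPM in DIO and 16.7, 8.04, 13.2, 12.6 and 13.5 CPM in DIO + DHA. These groups overlapped, with the highest library in DIO and the lowest in DIO + DHA (-0.11, SE 0.18, 95% interval -0.47 to 0.26, adjusted p = 0.784 by the edgeR test). Zfp36 (ENSMUSG00000044786.7, chr7:28076209-28079678, minus strand) was 42.2, 37.5 and 41.2 CPM in DIO and 38.7, 30.8, 39.6, 30.4 and 45.0 CPM in DIO + DHA, where both the highest and the lowest library were found (-0.11, SE 0.12, 95% interval -0.34 to 0.13, adjusted p = 0.646 by the edgeR test).

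Btg2 (ENSMUSG00000020423.7, chr1:134002908-134006858, minus strand), an antiproliferative gene whose product recruits the CCR4-NOT deadenylase, was 22.5, 16.6 and 13.5 CPM in DIO. In DIO + DHA it was 14.9, 16.8, 14.3, 16.9 and 15.7 CPM, all inside the DIO range (-0.06, SE 0.16, 95% interval -0.39 to 0.26, adjusted p = 0.863 by the edgeR test). Without DIO replicate 1, which held the highest value, the log2 fold change was 0.07. The intervals of Dusp1, Zfp36 and Btg2 leave out the change of Egr1, and those of Dusp1 and Btg2 do not leave out one of the size of Junb.

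**Figure D2:**
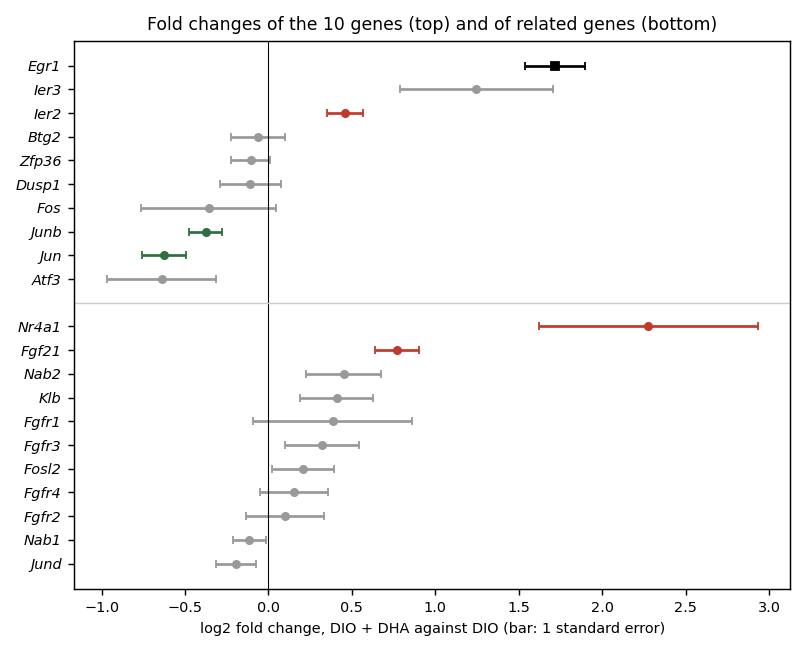
Log2 fold change of DIO + DHA against DIO with its standard error for the 10 genes (top) and related genes named in the text (bottom), in red where the edgeR test gave a higher and in green a lower level, in grey where it gave no call, and in black for Egr1, which carries no test. Egr1 (1.72) and Ier2 (0.46) lie to the right of 0, Jun (-0.62) and Junb (-0.38) to the left, and the bars of Ier3, Atf3 and Fos are wide.

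Ratios of raw counts within a library do not depend on depth or scaling. Egr1 over Jun was 0.476, 0.253 and 0.186 in DIO and 1.33, 1.38, 1.36, 1.39 and 1.03 in DIO + DHA. Jun thus had more counts than Egr1 in every DIO library and fewer in every DIO + DHA library, although counts are not per length and say nothing of which gene has more molecules. Egr1 over Junb was 0.204, 0.132 and 0.0928 in DIO and 0.617, 0.579, 0.623, 0.536 and 0.386 in DIO + DHA. Ier2 over Junb was 0.633, 0.512 and 0.525 in DIO and 0.967, 0.822, 1.19, 1.08 and 0.834 in DIO + DHA. The ratio of Jun to Junb, by contrast, was 0.429, 0.523 and 0.499 in DIO and 0.465, 0.421, 0.459, 0.387 and 0.373 in DIO + DHA, with overlapping groups. Egr1 over Ier2 was 0.177 to 0.323 in DIO and 0.463 to 0.704 in DIO + DHA, also without overlap. These ratios are given without a test. Egr1 and Ier2 were higher and Jun and Junb lower in every DIO + DHA library. Ratios of Egr1 or Ier2 to Jun or Junb therefore could not overlap, and they are no further result.

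**Figure D3:**
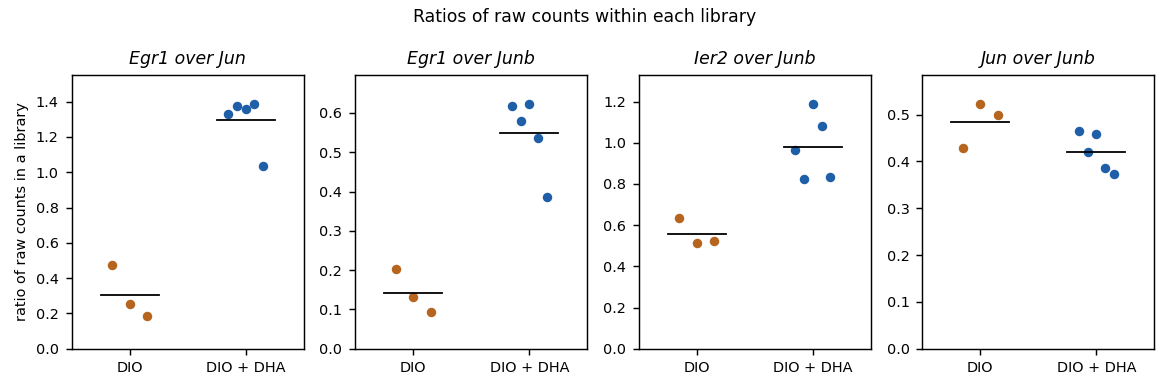
Ratios of raw counts between pairs of immediate early genes within each library, for DIO (n = 3, orange) and DIO + DHA (n = 5, blue), with a line at the group mean. Egr1 over Jun (at most 0.476 in DIO and at least 1.03 in DIO + DHA), Egr1 over Junb and Ier2 over Junb do not overlap between the groups, while Jun over Junb does.

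Within the groups, libraries were not simply high or low for the whole class. The DIO replicate 1 library, the shallowest, was the highest of its group for 7 of the 10 genes and the lowest for 2, Jun and Junb. DIO replicate 4 was the highest for 0 and the lowest for 6 genes. Averaged over the 10 genes, the deviation of log2 CPM from the group mean was 0.21, -0.21 and -0.01 in DIO replicates 1, 4 and 5, and 0.12, -0.10, 0.14, -0.18 and 0.03 in DIO + DHA replicates 1, 2, 4, 5 and 6. Egr1 itself deviated by 0.41, -0.01 and -0.40 in DIO and by 0.19, 0.18, 0.06, -0.09 and -0.35 in DIO + DHA.

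Spread between mice differed from gene to gene. The coefficient of variation of Ier3 was 60.9% in DIO and 43.5% in DIO + DHA, where counting alone gives 47.7% and 33.1%. For Egr1 it was 29.5% and 15.1%, against 18.0% and 10.1% from counting. Btg2 varied by 26.1% in DIO and 7.25% in DIO + DHA, against 12.6% and 13.0% from counting. Zfp36 varied the other way round, by 6.12% and 16.8%, against 8.35% and 8.56% from counting. The lower value of Btg2 and that of Zfp36 each lay below counting error. Ier2 varied by 4.95% and 8.47%, against the 9.10% and 7.55% that its counts give by chance of sampling, and was the steadiest of the 10 genes in DIO.

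**Figure D4:**
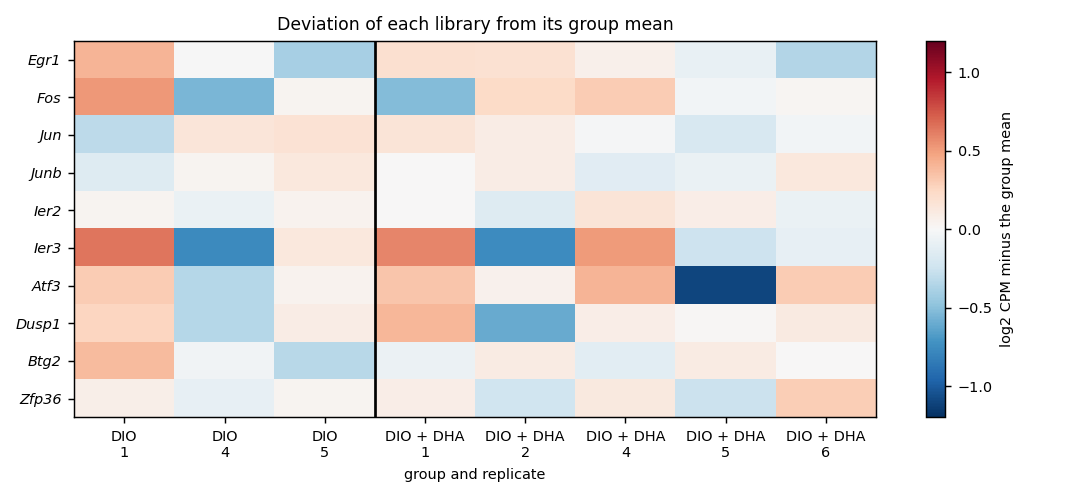
Deviation of log2 CPM from the group mean for each of the 10 genes (rows) in each library (columns, DIO to the left of the black line and DIO + DHA to the right), in red above and in blue below the mean. DIO replicate 1 is above the mean for most genes but below it for Jun and Junb, and no DIO + DHA library is high or low for all 10 genes.

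Likeness to Egr1 was measured as the root mean square (RMS) difference of log2 CPM, centred on each gene over the 8 libraries, among 8227 genes whose mean reached 5 CPM or more. The closest genes were Apoa4, an apolipoprotein of triglyceride-rich particles (RMS 0.23, 543 CPM in DIO and 1635 CPM in DIO + DHA), and Ces3b, a liver carboxylesterase (0.24, 15.2 and 52.2 CPM). Next came Cyp4a31, a fatty acid omega-hydroxylase (0.25, 14.1 and 44.0 CPM), Hspb1, a small heat shock protein (0.26, 12.1 and 29.8 CPM), and Cox7a1, the muscle isoform of a cytochrome c oxidase subunit (0.27, 21 and 58.7 CPM). Ces3b and Cyp4a31 have close relatives beside them in the genome, and reads that match several places were not counted, so their levels are uncertain. Of the other 9 genes 6 could be ranked. Ier2 ranked 355 (RMS 0.61), Btg2 4646, Zfp36 5983, Dusp1 6815, Junb 7261 and Jun 7797, while Fos, Ier3 and Atf3 were below 5 CPM and had no rank (RMS 1.01, 0.64 and 1.21). The measure is largely one of how far apart the 3 and 5 libraries lie, and a low value does not show that genes vary together within a group.

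Genes that act with EGR1 were described next. Nab1 and Nab2 encode corepressors that bind EGR1, and Nab2 is itself an EGR1 target. Nab1 was 53.6 and 49.4 CPM (-0.11, adjusted p = 0.534 by the edgeR test), and Nab2 was 6.33 and 9.26 CPM (0.45, SE 0.22, adjusted p = 0.197 by the edgeR test). The other EGR genes were too low to test, with at most 5 counts of Egr2, 1 of Egr3 and 0 of Egr4 in any library. A count of 0 allows up to 3 counts, which is 0.532 to 1.69 CPM in these libraries.

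Fgf21, a hepatic hormone of fasting whose receptor signals through ERK, was 16.9, 24 and 19.2 CPM in DIO and 35.1, 35.5, 28.5, 39.1 and 37.1 CPM in DIO + DHA. It was higher in every DIO + DHA library (20.0 ± 3.63 and 35.1 ± 3.98 CPM, log2 fold change 0.77, SE 0.13, adjusted p = 7.3e-06 by the edgeR test). Its coreceptor Klb gave 6.03 and 8.47 CPM (0.41, adjusted p = 0.239 by the edgeR test), and the receptors Fgfr1, Fgfr2, Fgfr3 and Fgfr4 gave log2 fold changes of 0.39, 0.10, 0.32 and 0.15 that did not pass. Of 36 tested genes of the FGF21 receptor, the MAP kinases (ERK, and also JNK and p38), SRF and CREB, 1 was higher (Fgf21) and 3 were lower (11.1%, against 15.2% of all genes), with a median of 0.0031. The 3 lower genes were the p38 kinase Mapk14 (-0.35, adjusted p = 0.0178), the adaptor Grb2 (-0.37, adjusted p = 0.0217) and the ETS factor Elk3 (-0.65, adjusted p = 0.0433), each by the edgeR test. Each rests on few libraries: Mapk14 lost its call without DIO replicate 1 (adjusted p = 0.0581) or 5 (0.281), Grb2 without DIO replicate 4 (0.145) or DIO + DHA replicate 6 (0.0606), and Elk3 without any of 5 libraries (0.0631 to 0.207), by the same test. With all 8 libraries DESeq2 called none of Mapk14, Grb2 and Elk3 (adjusted p = 0.0656, 0.0764 and 0.179). Their calls were also lost in the edgeR fit with the replicate number as a block. Map2k2 and Hras, the most counted genes of the list, did not pass (-0.12 and 0.0017).

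Of 12 tested MAP kinase phosphatases and feedback inhibitors 1 was higher and 0 lower (8.33%, against 15.2% of all genes), with a median of 0.22. The 12 include Nab1 and Nab2, given above. At an unadjusted p under 0.05 in the edgeR test, Dusp8 and Nab2 were also higher and Spred1 lower, none of which passed the adjustment, and DESeq2 called 0 in either direction. The higher gene was Dusp6, a phosphatase specific for ERK, at 21.9, 11.9 and 8.87 CPM in DIO and 22.8, 20.1, 15.7, 22 and 17.5 CPM in DIO + DHA (0.68, SE 0.19, adjusted p = 0.0103 by the edgeR test). Its groups overlapped through DIO replicate 1, and the call was lost without DIO replicate 4 (adjusted p = 0.0792) or DIO replicate 5 (adjusted p = 0.202) in that test and with DESeq2 (adjusted p = 0.064).

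A wider list of 54 other immediate early genes was described in the same way, of which 46 could be tested. In DIO + DHA 4 were higher and 13 lower (37.0%), with a median log2 fold change of -0.12, against 15.2% and 0.0011 over all genes. The number that passed was 12 to 17 when libraries were left out in turn. Without DIO replicate 4 there were 4 higher and 8 lower, and DESeq2 with all libraries also gave 4 higher and 8 lower. Errfi1, which restrains EGF receptor signalling, fell from 937 ± 26.7 to 503 ± 17.9 CPM (-0.90, adjusted p = 8.0e-18). Cebpb, a transcription factor of the acute phase response, fell from 195 ± 4.99 to 94.1 ± 5.42 CPM (-1.05, adjusted p = 5.1e-17), and the kinase genes Plk3 and Pim3 fell by 1.16 and by 0.61 on the log2 scale (adjusted p = 1.4e-07 and 2.4e-05), all by the edgeR test. The other lower genes, named to complete the count, were Per1, Bhlhe40, Klf6, Nfkbia, Nfkbiz, Cebpd, Irf1, Pim1 and Mcl1, among them NF-κB inhibitors, a clock gene and kinase and survival genes. Cebpb, Irf1, Nfkbia and Nfkbiz are also expressed in macrophages, whose summed markers were lower in DIO + DHA by the values given above, and their part in these genes was not tested.

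The 4 higher genes were Id1, Id3, Hes1 and Nr4a1, of which Nr4a1 could be tested only through its counts in DIO + DHA. Id1, an inhibitor of basic helix-loop-helix factors that BMP signals induce, rose from 13.9 ± 1.33 to 36.3 ± 4.63 CPM (1.35, SE 0.14, adjusted p = 1.8e-11), and Id3 rose by 0.42. Hes1, a Notch target, rose from 21.3 ± 2.02 to 40.1 ± 5.38 CPM (0.96, SE 0.13, adjusted p = 2.6e-08), each by the edgeR test. Id2, the most counted Id gene, was 304, 162 and 166 CPM in DIO and 251 to 330 CPM in DIO + DHA. With DIO replicate 1 it did not pass (0.49, adjusted p = 0.264), and without it Id2 gave 0.80 and an adjusted p of 1.6e-12 by that test. With all 8 libraries limma-voom did call it (0.57, adjusted p = 3.8e-04).

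Nr4a1, a nuclear receptor induced with Egr1 by many stimuli, was counted 0, 3 and 2 times in DIO and 15, 2, 9, 5 and 8 times in DIO + DHA. Its fitted log2 fold change was 2.28 (SE 0.66, adjusted p = 0.00749 by the edgeR test). It met the filter on low counts only through DIO + DHA, the group where it is higher, and without a filter the adjusted p of Nr4a1 was 0.00829 in the same edgeR test. The call was lost without DIO replicate 5 (adjusted p = 0.0536), and its size depends on how 0 counts are treated. Nr4a2 and Nr4a3 reached at most 5 and 2 counts and Arc at most 1, and these 3 were not tested.

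**Figure D5:**
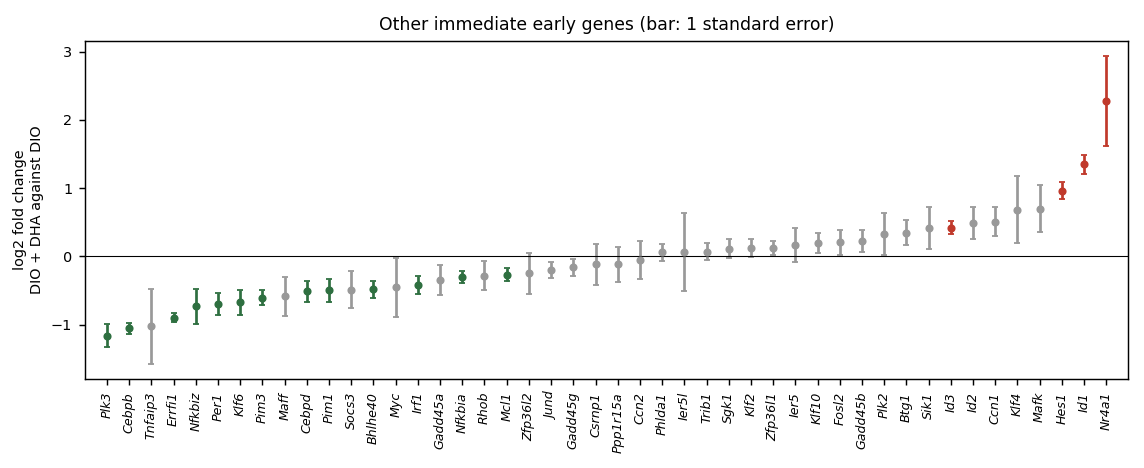
Log2 fold change of DIO + DHA against DIO, with its standard error, for the 46 tested other immediate early genes in rising order, in red where higher, in green where lower and in grey where the edgeR test gave no call. The called genes run from Plk3 (-1.16) to Nr4a1 (2.28), with 13 to the left and 4 to the right.

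Immediate early genes respond to stress and to handling of tissue, so genes of such responses were set beside them. Of 14 tested targets of the integrated stress response, 2 were higher and 3 lower (35.7%, against 15.2% of all genes), with a median of -0.03. Atf5 (0.73, adjusted p = 2.5e-11) and Cth (0.72, adjusted p = 4.0e-11) rose, while Chac1 (-1.64, adjusted p = 2.2e-06), Ddit4 (-1.10, adjusted p = 2.0e-04) and Cebpg (-0.28, adjusted p = 0.0478) fell, all by the edgeR test. Cebpg lost its call in 10 of 17 alternatives.

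Of 15 tested heat shock genes, 7 were higher and 4 lower (73.3%, against 15.2% of all genes), with a median of 0.20. The greatest changes were those of Cryab, at 6.28 ± 0.874 and 28.4 ± 3.39 CPM (2.14, adjusted p = 2.2e-15), and Hspb1 (1.36, adjusted p = 1.2e-10), by the edgeR test. Both are abundant in muscle, whose markers were higher in DIO + DHA by the values given above, and the part of muscle in these changes was not tested. Hspa5 (0.43) and Hspe1 (0.34) were also higher, Hspb8 (-0.43) and Hspa8 (-0.30) lower. The stress-inducible Hspa1b was 18.0 ± 2.61 and 15.7 ± 1.67 CPM (-0.18, adjusted p = 0.517 by the edgeR test). Hspa1b shares most of its sequence with Hspa1a and is uncertain for that reason, and it was named after its values were seen.

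Of 19 targets of fasting, glucocorticoids and cyclic AMP, 8 were higher and 7 lower (78.9%, against 15.2% of all genes), with a median of 0.07. Ppargc1a, the coactivator of mitochondrial and gluconeogenic genes, rose from 7.97 to 34.7 CPM (2.04, adjusted p = 7.0e-16), Pdk4 by 2.27 and G6pc1 by 0.59 on the log2 scale. Fkbp5 and Mt2 fell by 1.02 each and Mt1 fell by 0.57, all by the edgeR test. Pck1, the gluconeogenic enzyme, gave 881.6 ± 15.0 and 884.4 ± 45.9 CPM and did not pass. Pck1 was named after its values were seen. Ppargc1a and Pdk4 are also expressed in muscle.

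Last, of 17 tested genes of poly(A) tail removal and of proteins that bind AU-rich mRNAs or poly(A), some of them stabilizing, 0 were higher and 1 lower (5.88%, against 15.2% of all genes), with a median of 0.06, and at an unadjusted p under 0.05 the count of higher genes in the edgeR test was also 0. The lower gene was Tob2, a BTG relative, which fell from 45.2 ± 6.22 to 24.9 ± 4.35 CPM (-0.80, SE 0.12, adjusted p = 9.8e-07 by the edgeR test). The most counted genes of this list, Pabpc1 (0.14) and Hnrnpd (-0.04), did not pass.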

How the data were processed

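Liver poly(A) RNA of 3 DIO and 5 DIO + DHA mice was sequenced by an adapted SCRB-seq protocol, which enriches 3′ ends. Per the submitters' processing notes and the file headers, reads were aligned with STAR 2.7.9a (GRCm39), and featureCounts 1.6.0 assigned them to exons annotated in GENCODE mouse release 33. The values deposited by the authors are raw counts per gene. The counting commands in the file headers set no strand, so antisense neighbours share reads, and left out multi-mapping reads. Whether molecular identifiers were collapsed is not given in the sources used here, so counts may not be independent molecules, and limits from counting alone cover counting error only. All libraries carry the same batch label.

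The tables of 56884 genes were joined, and 56323 identifiers were named by GENCODE release 39. Following the study's methods, genes with fewer than 5 counts in over 50% of libraries, in DIO and in DIO + DHA alike, were dropped, which left 12412. Counts were scaled by TMM and tested with edgeR 4.0.16 (quasi-likelihood F test, robust dispersions, no covariates, Benjamini-Hochberg over all tested genes, adjusted p under 0.05) in R 4.3.3, with limma 3.58.1 and DESeq2 1.42.0 as alternatives. The script was tested on simulated data. CPM are TMM-scaled, and log2 CPM used a prior count of 2. Mice were taken as replicates.

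The members and lists were chosen with earlier results of these data known. Named genes were all members, the called genes of each list with the smallest p (at most 6), the 2 most counted genes of each list, the AP-1, EGR, NR4A, NAB and FGF21 receptor genes, and the 5 genes most like Egr1. Per1 and Sgk1 are in 2 of the functional lists, and Spp1, Des and Acta2 in 2 marker lists. Sequences were read from GRCm39 at GENCODE release 39 models, without Egr1.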

Additional observations from a re-analysis of the deposited data

Results flagged for a closer look

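Of 60 named genes tested for a library that stands apart from its group, 1 was flagged. Nab2, the EGR1 corepressor, was 5.39 CPM in DIO + DHA replicate 5 and 9.63 to 11.3 CPM in the other 4 DIO + DHA libraries. The gap to the nearest library was 0.717 of the range of the group, above the critical value of 0.71 for 5 libraries, and chance flags about 1 in 20 groups. In the same library Jun, Atf3 and Zfp36 were also the lowest of their group, while Btg2 was the highest.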

How the results depend on the processing

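Among 1011 values of the 60 named genes under alternatives (17 per gene at most), 949 kept direction and call, 43 lost and 8 gained a call, and 11 changed sign, all of genes without a call in either fit. With the replicate block Fosl2 gave -0.047 and Hras -0.016, and with library size scaling Hras gave -0.018. The other 8 came from leaving out a library, which gave -0.224 to 0.0692 for Btg2, -0.0404 to 0.191 for Fgfr2, -0.0216 to 0.0369 for Hras and -0.154 to 0.0765 for Hnrnpd. Jun held in all. The study's methods called genes by the stricter limma-voom rule (B above 0). Under it 1 of the 9 members passed (Jun), 8 other immediate early genes and 6 heat shock genes. The FGF21, ERK and SRF list then gave 1 gene, and 860 of all genes passed. Under DESeq2 the FGF21, ERK and SRF list gave 1 and the MAP kinase feedback list 0. The replicate numbers shared by the groups gave no sign of pairing the mice (correlations of deviations -0.0133, -0.0135 and -0.0111 for the same number, -0.0593 to 0.0621 for others). So few correlations cannot show that no pairing exists. As a block, the replicate number gave 2 higher and 0 lower genes in the FGF21, ERK and SRF list, 3 members and 1538 genes over all, and Mapk14, Grb2 and Elk3 had an adjusted p of 0.0578, 0.0832 and 0.172 in that edgeR fit. Leaving out each library in turn gave 2 to 4 members, 12 to 17 other immediate early genes, 0 to 2 feedback genes, 2 to 4 genes of the FGF21, ERK and SRF list, 4 to 5 stress response genes, 8 to 11 heat shock genes, 13 to 15 fasting genes and 1432 to 1859 of all genes. The causes were not tested. Scalings moved the median log2 fold change of all genes by less than 0.02. Fos, Ier3, Atf3 and Nr4a1 rest on at most 26 counts in a library, which limits what could be called.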
